A study of Homo sapiens with 12 samples.

Results

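The genes described here are 10 genes of cell junctions, cell polarity and the syndecan family, measured in tumours of the human prostate cancer line 22Rv1. They were found by gene name in the deposited tables, which hold 19038 transcripts for RNA. Each of the 10 has 1 transcript there, and all 10 passed the filter on low counts in both assays. SIPA1L3 and PLEKHA7 were chosen by their large rise of ribosome footprints over RNA between the treatments, and SDC2 by its large fall. The other 7 (SIPA1L1, SIPA1L2, CDH1, CTNND1, TJP1, SDC1 and SDC4) were added as relatives. Values of the first 3 are therefore given as a description with no test, and only the 7 related genes are tested.

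22Rv1 cells were implanted beneath the skin of the flank in male NSG mice 6 to 8 weeks old, a strain without lymphocytes that still has its own stroma and myeloid cells. When tumours measured 70 to 100 mm3, mice were given an intraperitoneal dose of zotatifin at 0.3 mg/kg, or dextrose vehicle. Tumours were collected 6 h later, and ribosome footprints and total RNA were sequenced from 3 tumours of each treatment, which gave 12 libraries in 4 groups. All tumours come from 1 cell line. The treatment field of 6 samples contradicts their titles, and the titles were used. RNA libraries held 5761921 to 8153674 counts and footprint libraries 838135 to 2013968, with fewer footprints in each zotatifin library than in any vehicle library. Levels are CPM (counts scaled to a common library size by TMM), so they are relative to the library. Of 10 markers of prostate epithelium, none was at 0 in any library, and their summed footprints ranged from 3963 to 6014 CPM.

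Adherens junctions hold epithelial cells together through E-cadherin, whose cytoplasmic tail binds catenins, while tight junctions seal the space between cells and rest on scaffold proteins such as TJP1. Proteins of the SIPA1 family switch off the small GTPase Rap, which acts in adhesion and polarity. Syndecans are transmembrane proteoglycans whose heparan sulfate chains bind growth factors and matrix. Zotatifin inhibits eIF4A, the helicase that opens mRNA leaders for initiation, and compounds of its kind clamp eIF4A onto purine-rich RNA.

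For that reason the purine content at the annotated 5′ ends was read. RefSeq (GRCh38.p14) start sites were given for 6 of the 10 genes, with 12 starts in all. Runs made only of A or G were searched on the transcribed strand in the first 50 bases, and 30 bases around the longest run are shown for SIPA1L3, its relative SIPA1L2 and the syndecans SDC1 and SDC4, with the run in capitals.
SIPA1L3: acagttcccAGGAGGActcgcgcgaagcgg
SIPA1L2: gctggcggagcGAGAGGAGGAGGAGGAcgg
SDC1 (start 1): AGAGGGcgctgcacactcgcgcccgaggac
SDC1 (start 2): ttgcaacggctAAGGAAGGGcctgtgggtt
SDC4: actcgccgcAGcctgcgcgccttctccagt
These lie at chr19:37907208-37907237 (plus strand), chr1:232630084-232630113, chr2:20225446-20225475, chr2:20225096-20225125 and chr20:45348395-45348424 (all minus strand). The longest run was 7 bases in SIPA1L3, as long or longer in 31.8% of 35114 annotated human starts. In SIPA1L2 it was 16 bases, a length reached by 0.934% of starts, and in SDC4 2 bases, reached by 99.9%. SDC1 had 6 and 9 bases at its 2 starts (47.3% and 13.7%), the 3 starts of SIPA1L1 had 6 to 8, and the 4 of TJP1 had 3 to 9. The median over all starts was 5 bases. Which start these tumours use was not measured, and the rest of each leader was not examined.

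SIPA1L3, a member of the SIPA1 family with a role in epithelial polarity (ENST00000222345, chromosome 19, 37907208 to 38208369), showed the largest footprint rise of 9544 genes. Its footprints stood at 19.7, 20.5 and 19.7 CPM in the vehicle tumours and at 128, 258 and 222 CPM in the zotatifin tumours. The treatments did not overlap, and the lowest zotatifin tumour was far above the highest vehicle tumour. The fitted log2 change was 3.33 ± 0.24 (SE), or 10.0-fold. RNA of SIPA1L3 was 102, 97.9 and 70.8 CPM with vehicle and 105, 74.8 and 109 CPM with zotatifin, which overlap (log2 change 0.10 ± 0.15). Without vehicle library 3 the sign of this RNA value turned, to −0.052. In counts, the vehicle footprint libraries held 31 to 40 reads of the gene and the zotatifin libraries 148 to 343.

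The relatives overlapped between treatments in footprints. SIPA1L1, known from synapses where it shapes dendritic spines (ENST00000555818, chromosome 14, 71320476 to 71741209), had footprints of 18.7, 13.9 and 18.4 CPM with vehicle and 15.6, 18.4 and 14.2 CPM with zotatifin. These overlap (−0.11 ± 0.26, adjusted p = 0.851). RNA of SIPA1L1 was 59.6 to 68.8 CPM with vehicle and 73.5 to 83.0 CPM with zotatifin, without overlap, but the difference did not pass the test (0.30 ± 0.13, adjusted p = 0.205). SIPA1L2 (ENST00000262861, chromosome 1, 232397965 to 232630496), the member with the long purine run printed above, had footprints of 9.83, 8.88 and 17.2 CPM with vehicle and 12.1, 6.13 and 11 CPM with zotatifin. They overlap (−0.20 ± 0.33, adjusted p = 0.773), on 5 to 27 reads per library. Its RNA changed by 0.17 ± 0.15 (adjusted p = 0.561). The 3 genes thus had footprint values of 3.33, −0.11 and −0.20 and RNA values of 0.10, 0.30 and 0.17 on the log2 scale. The difference between SIPA1L3 and its relatives was not tested, since SIPA1L3 was chosen for it.

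**Figure D1:**
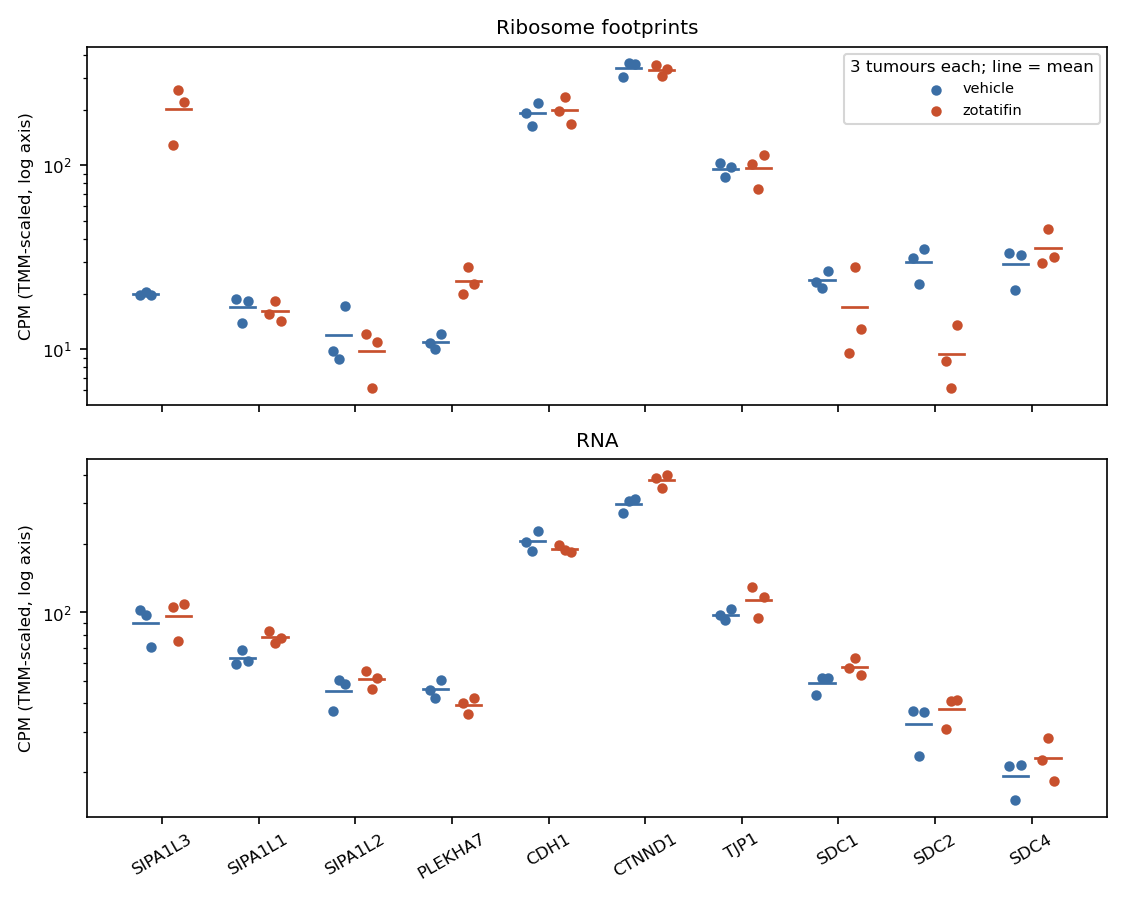
Footprint level (top) and RNA level (bottom) of the 10 genes in TMM-scaled CPM on a log axis, with 1 point per tumour, 3 tumours per treatment and a line at the mean. Footprints of SIPA1L3 lie at 128 to 258 CPM with zotatifin against 19.7 to 20.5 with vehicle, while its RNA overlaps between treatments.

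PLEKHA7 links adherens junctions to microtubules: it binds CTNND1 and, through CAMSAP3, microtubule ends (ENST00000531066, chromosome 11, 16777297 to 17014414). Its footprints were 10.8, 9.99 and 12.1 CPM with vehicle and 20.0, 28.2 and 22.6 CPM with zotatifin. All 3 zotatifin tumours were above all 3 vehicle tumours (log2 change 1.08 ± 0.26, or 2.12-fold). Its RNA went the other way, from 45.8, 42.2 and 50.6 CPM to 40.0, 35.8 and 42.2 CPM (−0.23 ± 0.14), with a narrow gap between the treatments. The footprint values rest on 18 to 35 reads per library.

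For the 3 core junction proteins beside it, footprints overlapped between the treatments. E-cadherin, CDH1 (ENST00000261769, chromosome 16, 68737292 to 68835537), had 193, 163 and 219 CPM with vehicle and 198, 237 and 168 CPM with zotatifin, fully overlapping (0.05 ± 0.13, adjusted p = 0.861). Its RNA overlapped as well (−0.11 ± 0.12, adjusted p = 0.647). The tight junction scaffold TJP1 (ENST00000356107, chromosome 15, 29699367 to 29969049) had 103, 86.6 and 97.9 CPM with vehicle and 102, 74.8 and 114 CPM with zotatifin (0.05 ± 0.14, adjusted p = 0.865). RNA of TJP1 was 93.0 to 104 CPM with vehicle and 95 to 130 CPM with zotatifin (0.22 ± 0.13, adjusted p = 0.394).

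CTNND1, the catenin that keeps E-cadherin at the membrane (ENST00000399050, chromosome 11, 57761802 to 57819540), differed between the assays. RNA was 271, 306 and 313 CPM with vehicle and 387, 349 and 398 CPM with zotatifin, so that each zotatifin tumour lay above each vehicle tumour. The log2 change of 0.35 ± 0.12 did not pass the test (adjusted p = 0.131), and of the alternatives run it passed only without zotatifin library 2 (0.41, adjusted p = 0.0480). Footprints stayed within the same range, 303 to 359 CPM with vehicle and 305 to 351 CPM with zotatifin (−0.03 ± 0.11, adjusted p = 0.882). The sign of the footprint changes of CDH1, CTNND1 and TJP1 turned when single libraries were left out (−0.068 to 0.18, −0.11 to 0.019 and −0.089 to 0.19).

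SDC2, a syndecan best known from mesenchymal cells (ENST00000302190, chromosome 8, 96493813 to 96611790), had the opposite pattern to SIPA1L3. Its footprints were 31.5, 22.8 and 34.9 CPM with vehicle and 8.68, 6.13 and 13.6 CPM with zotatifin. The treatments did not overlap (log2 change −1.54 ± 0.28, or 0.344 of the vehicle level), with 41 to 64 reads in the vehicle libraries and 5 to 21 in those of zotatifin. RNA was 37.2, 23.6 and 36.9 CPM with vehicle and 31.1, 41.0 and 41.3 CPM with zotatifin, which overlap (0.21 ± 0.18).

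SDC2 is also a gene of connective tissue, and how mouse reads were handled is not given in the sources used here, so 12 fibroblast markers were set beside it. In footprints, where 3.92% of all genes fell, 7 of the 12 passed the filter, and 5 fell and 0 rose (median −1.48). Without vehicle library 1, zotatifin library 2 or zotatifin library 3, 3, 1 and 3 of them fell. Their summed footprints over all 12 were 495 to 869 CPM with vehicle and 158 to 286 CPM with zotatifin. In RNA, where 0.907% of all genes fell, 4 of 7 fell and 0 rose (median −1.48). Without vehicle library 1 or 3, 2 fell in RNA. The RNA sums were 245 to 405 CPM with vehicle and 85.7 to 158 CPM with zotatifin. COL1A2, a collagen chain, changed by −1.48 ± 0.28 in footprints (adjusted p = 0.0145) and by −1.88 ± 0.22 in RNA (adjusted p = 1.25e-04). Its footprint call was lost without zotatifin library 2 (adjusted p = 0.187) or 3 (0.0653). The RNA call of COL1A2 held without any 1 library (up to 0.0101). SPARC fell in footprints (−1.24 ± 0.20, adjusted p = 4.17e-04), a call that held without any 1 library (up to 0.00665). In RNA SPARC fell too (−1.25 ± 0.23, adjusted p = 0.00860), but not without vehicle library 1 (0.0745) or 3 (0.0855). The footprint call of COL3A1 (−1.92 ± 0.29, adjusted p = 0.00871) was lost without zotatifin library 2 (0.109). Summed footprints of 10 myeloid markers were 70.5 to 325 CPM with vehicle and 32.3 to 68.7 CPM with zotatifin, without overlap, and 2 of the 4 tested fell. That count was 1 without vehicle library 1, vehicle library 3, zotatifin library 1 or zotatifin library 3, and 4 without vehicle library 2. Their summed RNA was 17.8 to 53.1 CPM with vehicle and 11.2 to 21.0 CPM with zotatifin, which overlap. Of the 4 myeloid markers tested in RNA, 2 fell and 0 rose (median −1.79). The RNA count was 0 to 4 without any 1 library. DESeq2 called 1 myeloid marker in footprints and 0 in RNA. The called myeloid markers of both assays averaged below 20 counts per library. TYROBP had 0 RNA reads but 22 footprint reads. The 6 endothelial markers summed to 2.78 to 4.45 and 0 to 3.68 CPM in footprints and to 5.6 to 15.2 and 3.57 to 6.70 CPM in RNA. Summed fibroblast marker RNA was thus lower in every zotatifin tumour than in any vehicle tumour, while SDC2 RNA was not: its median tumour had 36.9 CPM with vehicle and 41.0 CPM with zotatifin. In bulk tumours, fewer cells of a type and less RNA per cell cannot be told apart. The part of stromal or myeloid cells in the footprint values of SDC2 was not tested.

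**Figure D2:**
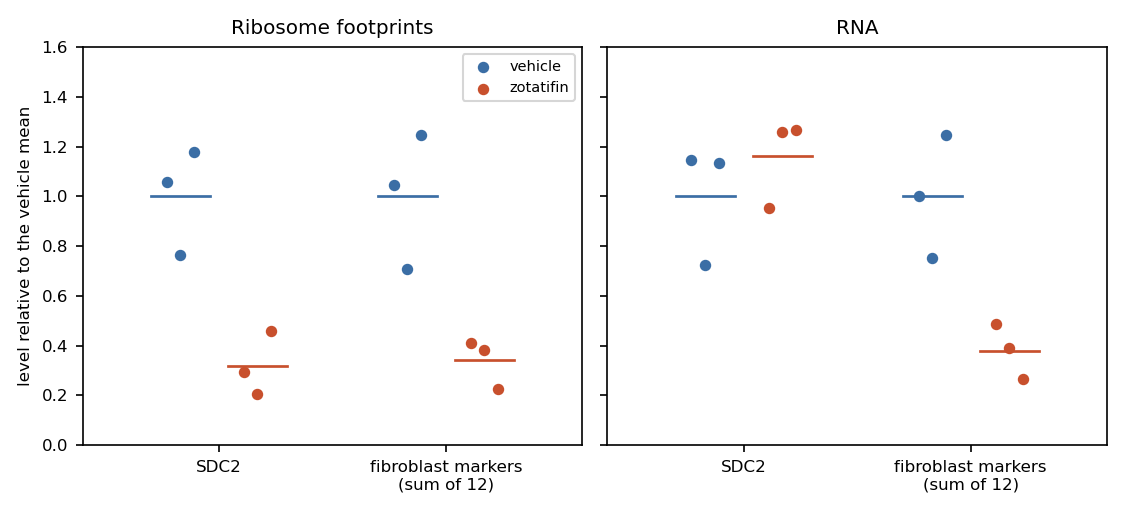
SDC2 and the sum of 12 fibroblast markers, each divided by its vehicle mean, in footprints (left) and RNA (right), with 1 point per tumour, 3 tumours per treatment and a line at the mean. Both are lower with zotatifin in footprints, and the marker sum is lower in RNA as well, where SDC2 overlaps between the treatments.

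SDC1, the main syndecan of epithelia (ENST00000254351, chromosome 2, 20200797 to 20225475), had footprints of 23.1, 21.6 and 26.7 CPM with vehicle and 9.55, 28.2 and 12.9 CPM with zotatifin. Zotatifin tumours 1 and 3 were below every vehicle tumour, and tumour 2 was above them all. The change of −0.60 ± 0.28 did not pass the test (adjusted p = 0.212), but it did without zotatifin library 2, the shallowest of the 12 (−1.04, adjusted p = 0.0333). RNA of SDC1 was 43.7 to 51.7 CPM with vehicle and 53.2 to 62.9 CPM with zotatifin, without overlap (0.23 ± 0.13, adjusted p = 0.376). SDC4, a syndecan of focal adhesions (ENST00000372733, chromosome 20, 45325288 to 45348424), had footprints of 33.4, 21.1 and 32.4 CPM with vehicle and 29.5, 45.4 and 31.7 CPM with zotatifin. They overlap (0.25 ± 0.21, adjusted p = 0.531), and so did its RNA, from 15.1 to 21.6 CPM and from 18.4 to 28.2 CPM (0.25 ± 0.20, adjusted p = 0.522). The 3 syndecans thus had footprint values of −0.60, −1.54 and 0.25 with RNA values of 0.23, 0.21 and 0.25.

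By edgeR, 0 of the 7 related genes passed the threshold of adjusted p under 0.05 in footprints, where 7.14% of all 9544 genes did. It was 0 of 7 in RNA as well, where 1.72% of 13118 genes passed. At an unadjusted p under 0.05 there was 1 in footprints (SDC1) and 2 in RNA (CTNND1 and SIPA1L1), and DESeq2 called 0 in both. The median change of the 7 was −0.03 in footprints and 0.23 in RNA, against 0.003 and −0.0023 over all genes. RNA was higher with zotatifin in 6 of the 7, and 3 of the 7 had no overlap between treatments, where 23.1% of all genes had none. In footprints 0 of the 7 were without overlap, where 26.4% of all genes were.

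**Figure D3:**
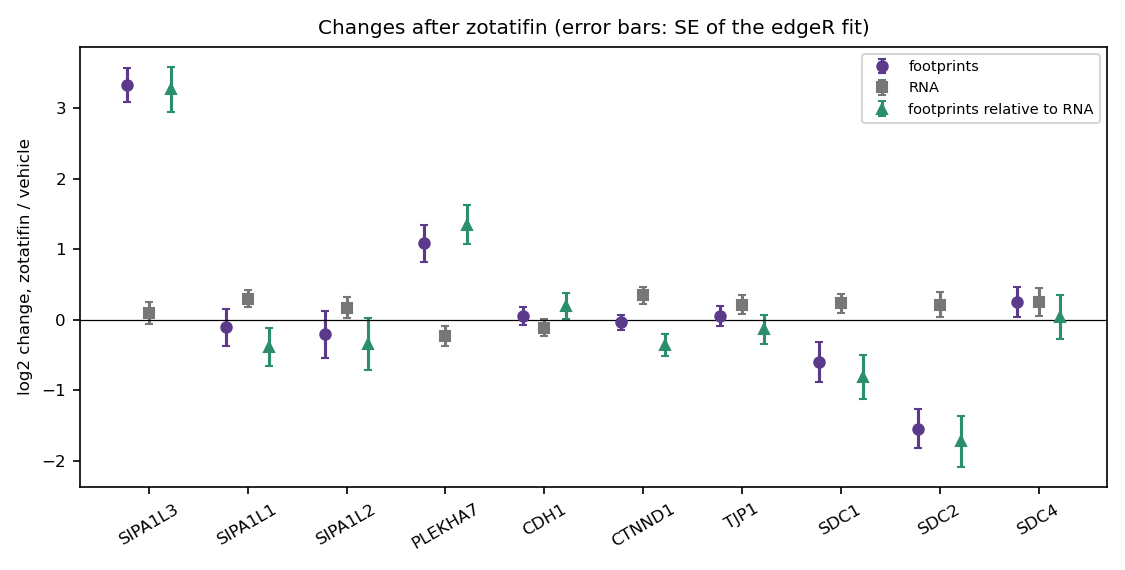
Log2 change, zotatifin over vehicle, of footprints (circles), RNA (squares) and footprints relative to RNA (triangles) for the 10 genes (3 tumours per treatment). Bars are standard errors derived from the F statistic of the edgeR fit. SIPA1L3 (3.33) and PLEKHA7 (1.08) lie above 0 and SDC2 (−1.54) below in footprints, while all RNA values lie between −0.23 and 0.35.

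The ratio of footprints to RNA, called translational efficiency (TE), was taken tumour by tumour. In vehicle tumours the log2 TE of SIPA1L3 was −2.16 ± 0.28 (SD, n = 3), of SIPA1L1 −1.91 ± 0.35, of SIPA1L2 −1.98 ± 0.51 and of PLEKHA7 −2.08 ± 0.0079. These 4 genes stood at percentiles 7.0 to 10.1 of 9454 genes, whose median was −0.19 with a 10th percentile of −1.91, and their ranges over tumours overlapped. CDH1 (−0.11 ± 0.07), TJP1 (−0.04 ± 0.10) and SDC2 (−0.12 ± 0.10) were near the median, and CTNND1 (0.19 ± 0.04) and SDC4 (0.57 ± 0.08) were above it. SDC1 was lower, at −1.04 ± 0.18. These ratios compare genes only if both assays counted the same part of the transcript, which is not given in the sources used here.

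With zotatifin, the ratio of SIPA1L3 was 0.29, 1.78 and 1.03 in the 3 tumours against −2.38, −2.25 and −1.85 with vehicle. All 3 zotatifin tumours were above the vehicle median of all genes, −0.19. PLEKHA7 went from −2.08, −2.08 and −2.07 to −1.0, −0.35 and −0.90, still below that median. SDC2 went from −0.24, −0.05 and −0.08 to −1.84, −2.74 and −1.60. By size of the fitted change these genes ranked 2nd and 21st among rises (3.26 ± 0.32 and 1.35 ± 0.28) and 4th among falls (−1.72 ± 0.36) of 9454 genes. High ranks, here and for SIPA1L3 in footprints, follow from how the genes were chosen.

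**Figure D4:**
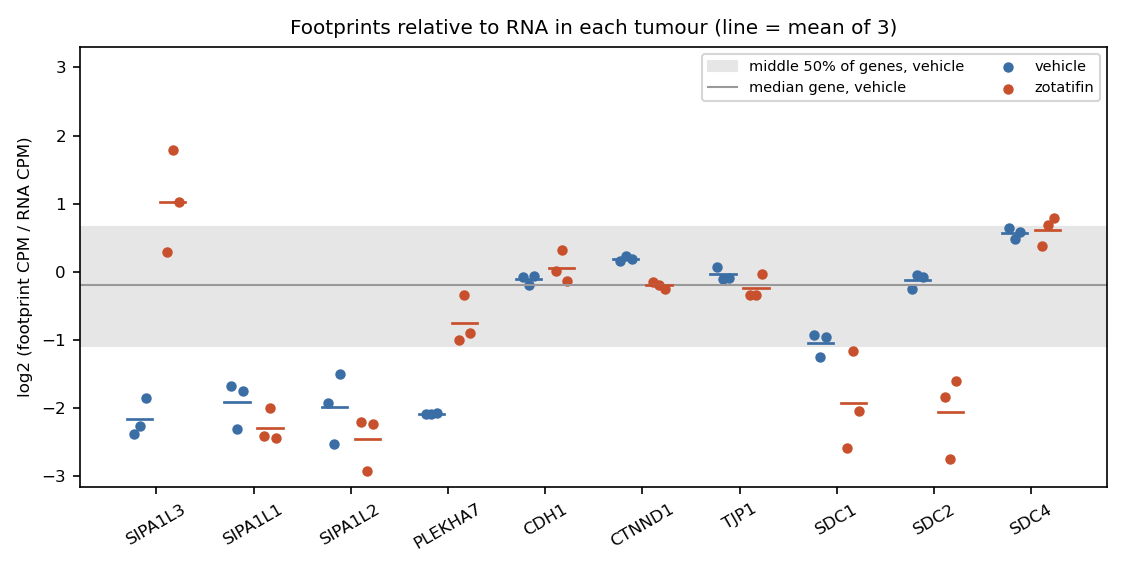
Log2 ratio of footprint CPM to RNA CPM in each tumour (3 per treatment, line at the mean), with the median (grey line) and the middle part, from the 25th to the 75th percentile (grey band), of 9454 genes in vehicle tumours. SIPA1L3, SIPA1L1, SIPA1L2 and PLEKHA7 start together near −2, and with zotatifin the first lies at 0.29 to 1.78 while SIPA1L1 and SIPA1L2 lie between −2.92 and −2.00.

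Among the 7 related genes, 0 passed the main edgeR TE test, against 1.69% of all genes. That fit does not pair the footprint and RNA libraries of a tumour. In it 2 had an unadjusted p under 0.05 (SDC1 and CTNND1), and DESeq2, also without pairing, called 0. With the tumour as a block, which pairs the libraries, 1 of the 7 passed (CTNND1), against 8.66% of all genes. The ratio of CTNND1 was 0.16, 0.23 and 0.19 with vehicle and −0.14, −0.19 and −0.25 with zotatifin, without overlap, and it was the only one of the 7 so placed, where 26.3% of all genes were. Its TE change was −0.35 ± 0.16 (adjusted p = 0.269), and with the tumour as a block −0.36 ± 0.11 (adjusted p = 0.0339). That block raised the calls among all genes from 160 to 819, or 8.66%, of which 159 were shared. SDC1 changed by −0.80 ± 0.31 in TE (adjusted p = 0.191, or 0.0570 with the block). Without zotatifin tumour 2 it passed (−1.18, adjusted p = 0.0469). SIPA1L1 (−0.38), SIPA1L2 (−0.34), TJP1 (−0.14), CDH1 (0.20) and SDC4 (0.04) did not pass with or without the block. The median TE change of the 7 was −0.34, against 0.02 over all genes.

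The authors' deposited table gives its own estimate of the change of footprints relative to RNA, here converted from natural log to log2. For SDC2 it is −1.69 in the authors' deposited table and −1.72 from the summed counts. For PLEKHA7 it is 1.31 in the authors' deposited table, against 1.35. For SIPA1L3, however, the authors' deposited table gives 0.78, against 3.26 from the counts. That gap of 2.48 was the largest of the 7610 genes compared, which averaged 20 or more reads in both assays. The median absolute gap was 0.04 and its 99th percentile 0.26. Of these genes, 7 had a gap over 1, and in all 7 the value from the counts was the higher. The authors' deposited table puts SIPA1L1 at −0.47 and SIPA1L2 at −0.53, against −0.38 and −0.34 here. For CTNND1 the authors' deposited table gives −0.42 with an FDR of 1.25e-08, and for SDC1 −0.72 with an FDR of 0.0168. The authors' deposited table also gives CDH1 an FDR of 0.0163, at 0.25. What entered the authors' model is not given in the sources used here.

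**Figure D5:**
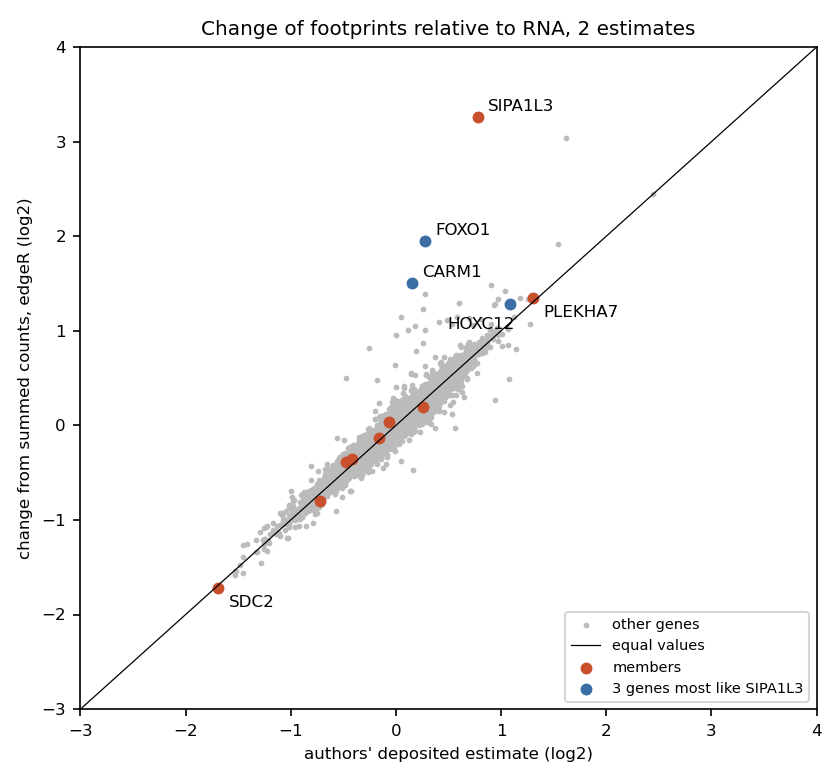
Change of footprints relative to RNA (log2, zotatifin over vehicle) from the summed counts (vertical) against the authors' deposited estimate (horizontal) for 7610 genes, with the line of equal values. SIPA1L3 lies at 3.26 against 0.78, with FOXO1 and CARM1 also above the line, while PLEKHA7 and SDC2 lie on it.

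Genes with the most similar pattern were sought over the 12 libraries, as the smallest distance between log2 CPM values set relative to the vehicle mean of each assay, among 7616 other genes. Those nearest to SIPA1L3 were FOXO1, HOXC12 and CARM1 (distances 2.62 to 3.21, median over all genes 5.68), with footprint changes of 1.84, 1.61 and 1.42. FOXO1 (1.95 from the counts) stands at 0.27 in the authors' deposited table and CARM1 (1.5) at 0.15, and these gaps ranked 2nd and 4th of 7610. HOXC12 stands at 1.28 from the counts and at 1.08 in the authors' deposited table. Nearest to PLEKHA7 were CCNL2, FBXL17 and MBD2 (0.67 to 0.69, median 2.01), with footprint changes of 0.81, 0.96 and 0.77. Nearest to SDC2 were RAB10, GPBP1 and WWP1 (1.15 to 1.20, median 2.99), with footprint changes of −1.04, −1.11 and −0.92.

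Around these genes, 8 lists of partners were examined. Of 81 list genes tested in footprints, 3 rose and 6 fell (all genes: 3.22% and 3.92%), with a median of −0.03. In RNA 0 of 102 rose or fell by edgeR (all genes: 0.808% and 0.907%), with 16 at an unadjusted p under 0.05 and 2 called by DESeq2. In TE 0 of 81 rose by edgeR and 3 fell (all genes: 0.476% and 1.22%), with 13 at an unadjusted p under 0.05 and 5 called by DESeq2. With the tumour as a block, 4 rose and 5 fell in TE (all genes: 3.62% and 5.05%).

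The Rap regulators hold the GTPases on which SIPA1 proteins act. Of 12 tested, 2 fell in footprints and 0 rose (median −0.18, all genes 0.003). RAP1A went from 108 ± 17 to 53.8 ± 6.21 CPM (SD, n = 3; −1.0 ± 0.15, SE, adjusted p = 1.65e-04) and RAP1B from 282 ± 43.7 to 182 ± 12.6 CPM (−0.62 ± 0.12, adjusted p = 0.00153). Both calls held without any 1 library. RAP1A also fell in TE (−1.04 ± 0.21, adjusted p = 0.00765), a call that needed vehicle tumours 1 and 3 and zotatifin tumour 1 (adjusted p up to 0.0782 without them). SIPA1, the founder of the family, changed by 0.69 ± 0.36 in footprints (adjusted p = 0.262).

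Of 14 adherens junction genes, 1 rose in footprints and 0 fell (median 0.01). This was CAMSAP3, the microtubule end protein that PLEKHA7 recruits, from 26.1 ± 2.50 to 42.8 ± 1.25 CPM (0.72 ± 0.18, adjusted p = 0.0145; lost without vehicle library 1, 0.0943, and in DESeq2, 0.0698). With the tumour as a block, 2 genes of this list rose in TE, CAMSAP3 (0.76 ± 0.21, adjusted p = 0.0153) and JUP (0.53 ± 0.13, adjusted p = 0.00696), and CTNNB1, beta-catenin, fell (−0.60 ± 0.12, adjusted p = 5.62e-04). Without the block CAMSAP3 and JUP did not pass under any scaling, filter or tool tried. CTNNB1 had an adjusted p of 0.0737 without it, but passed in DESeq2 (−0.61, adjusted p = 0.0350) and with no filter on low counts (−0.62, adjusted p = 0.0491). Of 5 other PLEKHA genes tested, 0 rose or fell in footprints by edgeR, with a median of 0.35, 1 at an unadjusted p under 0.05 and 0 called by DESeq2, and PLEKHA5 rose in TE with the block only (0.61 ± 0.20, adjusted p = 0.0489).

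Of the tight junction genes, 0 of 15 passed in footprints, 0 of 16 in RNA and 0 of 15 in TE by edgeR (medians −0.03, 0.02 and 0.03). At an unadjusted p under 0.05 there were 2, 5 and 0, and DESeq2 called 0, 1 and 0. Without vehicle library 3 or zotatifin library 3, 1 rose in footprints, and without zotatifin library 2, 1 rose in RNA. Of 6 desmosome genes, 1 rose in footprints: PKP3, a plakophilin, from 91.2 ± 7.25 to 130 ± 5.40 CPM (0.51 ± 0.13, adjusted p = 0.0124; lost without vehicle library 1, 0.0769, or 2, 0.0510). Of 17 genes of polarity complexes, 2 fell and 0 rose. They were the GTPase CDC42, from 454 ± 27.6 to 349 ± 35.9 CPM (−0.38 ± 0.11, adjusted p = 0.0247), and the scaffold DLG1, from 87.2 ± 5.94 to 59.6 ± 10.3 CPM (−0.52 ± 0.15, adjusted p = 0.0278). Leaving out vehicle library 1, vehicle library 3 or zotatifin library 3 ended the call of CDC42 (up to 0.143), and leaving out vehicle library 1, vehicle library 3 or zotatifin library 2 that of DLG1 (up to 0.154), which was lost in DESeq2 too (0.0748). In TE the kinase MARK3 fell (−0.94 ± 0.24, adjusted p = 0.0391; 0.00431 with the block), a call lost without any 1 of the 6 tumours (up to 0.145). Neither its footprints (−0.49 ± 0.21, adjusted p = 0.155) nor its RNA (0.48 ± 0.13, adjusted p = 0.0555) passed alone.

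Among other heparan sulfate proteoglycans and syndecan partners, 1 of 5 rose in footprints and 0 fell. From 1 to 2 fell without vehicle library 2 or any 1 zotatifin library. With all libraries kept, 0 to 2 of the list fell across the other scaling, filters, tool and replicate block tried. AGRN, a proteoglycan of basement membranes, went from 26.7 ± 5.67 to 43.3 ± 7.43 CPM (0.65 ± 0.20, adjusted p = 0.0427), a call that ended without any of the vehicle libraries and without zotatifin library 1 or 2 (up to 0.154) and in DESeq2 (0.124). In TE AGRN stood at 0.88 ± 0.24 (adjusted p = 0.0520). It passed with the block (0.88 ± 0.22, adjusted p = 0.00617), in DESeq2 (0.87, adjusted p = 0.0403) and with a stricter filter on low counts (0.89, adjusted p = 0.0460). CASK, which binds syndecan tails, fell in TE with the block (−0.73 ± 0.21, adjusted p = 0.0198) and did not pass under the other settings tried. SDC3, the syndecan of the nervous system, changed by −0.42 ± 0.58 in footprints (adjusted p = 0.724). Of 7 genes of heparan sulfate synthesis, 2 fell and 0 rose (median −0.34). UGDH, which makes the glucuronic acid donor, went from 685 ± 65.5 to 490 ± 52.4 CPM (−0.48 ± 0.11, adjusted p = 0.00615), a call that held without any 1 library, and fell in TE (−0.70 ± 0.17, adjusted p = 0.0269; 2.61e-05 with the block), a call lost without any 1 tumour (up to 0.100). The sulfotransferase HS2ST1, named because the count is small, changed by −1.11 ± 0.35 (adjusted p = 0.0494) at a mean below 20 counts per library, and passed in 1 of the 6 fits that leave out a library (up to 0.222).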

How the data were processed

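Tumours of 22Rv1 cells were profiled by ribosome footprinting and RNA sequencing. The authors deposited whole-number counts per transcript for 6 libraries of each assay; 0 columns were left without a sample. Per the submitters' processing notes, the genome build was hg38 and the software included Bowtie2 2.3.5, cutadapt 2.3, DESeq2 and UMI-tools. Their order, the strand setting and the counted region were not given in the sources used here. The authors' deposited RNA table holds a mean level (a signal), a log2 change with its error, a test score and p-values, plain and adjusted. The authors' deposited footprint table has an estimate read as natural log, since its weights on the log2 footprint and RNA changes were 0.665 and −0.666 over 1566 genes, and an FDR (adjusted p-value).

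Counts were tested in R 4.3.3 with edgeR 4.0.16: filterByExpr (minimum count 10, total 15), TMM, and the robust quasi-likelihood F test on zotatifin against vehicle, in footprints and RNA apart. TE was the interaction of assay and treatment over 12 libraries, with TMM within each assay and no pairing by tumour in the main fit. Adjusted p is Benjamini-Hochberg over all genes tested, with a threshold of 0.05. The SE of a log2 change was derived from the test, as its absolute size divided by the square root of F. TE levels are log2 ratios of CPM. The fits were also run on simulated data, in which every gene had the same dispersion and footprint and RNA libraries were drawn independently. Real libraries of a tumour deviated together, so that run does not show how the fits perform on these data. DESeq2 1.42.0, other scaling, other filters, single libraries left out and a replicate block were tried. Same-numbered footprint and RNA libraries within a treatment deviated together over 4889 genes (r = 0.217 to 0.440, 6 pairs; other numbers −0.381 to 0.119, 12 pairs), so the number marks a tumour and a TE fit with a tumour block was added. Vehicle and zotatifin libraries of 1 number did not (−0.0946 to 0.181).

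The members and gene lists were chosen with earlier results of these data known. All members are named. From the lists, the 3 smallest adjusted p per list and comparison are named among called genes that average 20 or more counts, and genes outside that rule were chosen after their values were seen. Positions and start sites come from RefSeq, GRCh38.p14. Counting precision at these depths is limited for genes with few reads. CPM levels were not compared between genes, since no coding lengths were at hand. TE levels were set against those of all genes, with the limit given there on the part of the transcript counted.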

Additional observations from a re-analysis of the deposited data

How the results depend on the processing

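The count of genes that changed in footprints (681) was 185 to 726 without any 1 library. With all libraries kept, it ranged from 416 (DESeq2) to 905 over the other settings tried. That in RNA (225) was 624 with no low-count filter and 11 to 396 without any 1 library. With the replicate block it was 527, though vehicle and zotatifin numbers share no known source. In TE (160) it was 819 with the tumour as replicate block and 56 to 132 without any 1 tumour. Of the 7 related genes, 0 were called in footprints, RNA and TE. This became 1 in TE with the replicate block (CTNND1), and 0 to 1 in each comparison when single libraries or tumours were left out (SDC1 in footprints and TE, CTNND1 in RNA, each without zotatifin replicate 2). Directions turned without single libraries in footprints of SIPA1L2 (−0.37 to 0.12), CDH1 (−0.068 to 0.18), CTNND1 (−0.11 to 0.019) and TJP1 (−0.089 to 0.19), in RNA of SIPA1L3 (−0.052 to 0.25) and in TE of SDC4 (−0.028 to 0.13). The cause was not tested. Footprint changes of SIPA1L3 (3.16 to 3.57), PLEKHA7 (0.97 to 1.18) and SDC2 (−1.95 to −1.36) are ranges without any 1 library, and their direction follows from how the genes were chosen. The vehicle TE of PLEKHA7 moved from −2.08 to −1.98 with a pseudocount of 1 CPM, beyond its SD of 0.0079. That SD rests on 18 to 22 footprint reads per library. With plain library totals or the pseudocount, the vehicle TE of SIPA1L2 went from −1.98 to as high as −1.885, within its larger SD of 0.51. The footprints of SIPA1L2, PLEKHA7 and SDC2 rest on 5 to 64 reads per library, which limits their precision. The replicate block changed no other call among the 7 related genes.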
